A study of Homo sapiens with 8 samples.

Results

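The 7 genes described here are *AHR*, *TIPARP*, *CYP1A1*, *CYP1B1*, *CYP4F11*, *CYP4F3* and *CYP24A1*, out of 57815 gene identifiers in the expression files. They comprise the aryl hydrocarbon receptor, 3 genes known as its targets and 3 further cytochromes P450. They were selected on their response to DEM in these same libraries, so each comparison of DEM with vehicle is given below for them as a description with no test. The RNA came from ABC1 and HCC4006, established lung adenocarcinoma lines without *KEAP1* or *NRF2* mutations. Each line received 100 μM DEM for 16 h or the vehicle alone, which the study's methods give as DMSO. Each of the 4 groups (ABC1 vehicle, ABC1 DEM, HCC4006 vehicle and HCC4006 DEM) held 2 libraries, numbered 0 and 1, which makes 8 libraries in all. DEM, an electrophile, is diethylmaleate in the study's methods and dimethylmaleate in the title of the deposited series. With 1 line of each kind, every difference between ABC1 and HCC4006 is a difference between these cultures.

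The aryl hydrocarbon receptor is a transcription factor that waits in the cytoplasm with HSP90 and co-chaperones. When a ligand such as a polycyclic aromatic hydrocarbon binds, it enters the nucleus, pairs with ARNT and activates genes through the xenobiotic response element (XRE). *CYP1A1* and *CYP1B1* are its textbook targets, and *TIPARP* encodes an ADP-ribosyltransferase that is induced by the receptor and restrains it. Electrophiles such as DEM act on another sensor, KEAP1, and release NRF2, which binds the antioxidant response element (ARE). *CYP4F3* and *CYP4F11* encode omega-hydroxylases of leukotriene B4 and of long-chain fatty acids, and *CYP24A1* encodes the mitochondrial enzyme that inactivates vitamin D hormone.

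The promoter sequences of the genes were read from RefSeq (GRCh38.p14) as the 250 bases before the start of transcription. Entries were found for 5 of the 7 genes, namely *AHR*, *TIPARP*, *CYP1A1*, *CYP4F11* and *CYP4F3*, in 8 windows. Both strands were searched for the XRE core GCGTG, its longer form TNGCGTG, which contains the core, and the ARE core TGACNNNGC. Of 35114 promoter windows of the same length, 32.2% held the XRE core, 4.5% its longer form and 10.9% the ARE core. The 4 windows below are shown because they allow the 2 known AHR targets to be set beside the 2 *CYP4F* genes, with every match in capitals. They are given from 5′ to 3′ on the strand of the gene, for *CYP1A1* at chr15:74725529-74725778 (minus strand), *TIPARP* at chr3:156674340-156674589 (plus strand), *CYP4F11* at chr19:15934868-15935117 (minus strand) and *CYP4F3* at chr19:15641062-15641311 (plus strand).
CYP1A1: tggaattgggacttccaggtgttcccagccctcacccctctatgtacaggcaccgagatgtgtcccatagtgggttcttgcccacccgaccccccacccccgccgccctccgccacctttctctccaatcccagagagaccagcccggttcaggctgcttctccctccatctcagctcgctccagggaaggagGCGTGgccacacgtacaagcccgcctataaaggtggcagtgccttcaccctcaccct
TIPARP: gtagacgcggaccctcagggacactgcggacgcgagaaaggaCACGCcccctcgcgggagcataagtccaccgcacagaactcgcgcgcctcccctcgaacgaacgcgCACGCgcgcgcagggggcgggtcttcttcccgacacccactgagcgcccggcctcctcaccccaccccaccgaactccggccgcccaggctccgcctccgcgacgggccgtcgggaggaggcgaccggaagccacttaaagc
CYP4F11: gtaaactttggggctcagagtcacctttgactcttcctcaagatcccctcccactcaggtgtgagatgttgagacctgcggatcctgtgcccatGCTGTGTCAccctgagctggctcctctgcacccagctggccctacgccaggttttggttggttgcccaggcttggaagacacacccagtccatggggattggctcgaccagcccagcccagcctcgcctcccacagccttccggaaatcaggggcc
CYP4F3: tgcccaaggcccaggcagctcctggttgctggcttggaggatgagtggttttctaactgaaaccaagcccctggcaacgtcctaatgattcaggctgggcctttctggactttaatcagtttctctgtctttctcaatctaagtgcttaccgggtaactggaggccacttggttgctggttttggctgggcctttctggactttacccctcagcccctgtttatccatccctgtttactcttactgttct

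*CYP1A1* held 1 XRE core at positions -57 to -53 from the start. The first *TIPARP* window held 2 on the opposite strand, at positions -208 to -204 and -142 to -138. The first *CYP4F11* window held 1 ARE core on the opposite strand, at positions -156 to -148. The windows of *CYP4F3* and *AHR*, the other *CYP4F11* window and the other *TIPARP* windows held none of these letters, and the longer XRE form was found in 0 of the 8 windows. A match to a core is a description of these letters only, and regions farther from the start were not searched.

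In the genome build of the expression files (GRCh37), *AHR* lies at chr7:16955983-17385776 (plus strand) and *TIPARP* at chr3:156391024-156424559 (plus strand). *CYP1A1* lies at chr15:75011883-75017877 (minus strand), *CYP1B1* at chr2:38294116-38337044 (minus strand) and *CYP24A1* at chr20:52769985-52790525 (minus strand). *CYP4F3* at chr19:15751707-15773635 (plus strand) and *CYP4F11* at chr19:16023177-16045677 (minus strand) belong to the *CYP4F* gene cluster. *CYP4F12* lies 10.2 kb beyond *CYP4F3*, and *CYP4F2* lies 14.3 kb before *CYP4F11*. The spans are those of all transcripts in the GENCODE annotation, so that of *AHR* covers long alternative transcripts.

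Because these genes have close relatives, every stretch of 80 bases, the read length, was looked up in the transcripts of other genes. None of the stretches of *CYP4F11*, *CYP1A1*, *CYP1B1*, *TIPARP* or *CYP24A1* was shared. For *CYP4F3*, 188 of 5870 stretches (3.2%) were shared with *CYP4F2*, whose own FPKM was between 0 and 0.152 in the 8 libraries. For *AHR*, 28.57% of stretches were shared with ENSG00000283321, a gene model of the newer annotation that overlaps *AHR* and is not among the identifiers of the expression files.

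The libraries were alike in general measures. The largest sum of FPKM (sequenced fragments per kilobase of a gene's transcript, corrected for library size) was 1.18 times the smallest, 12515 to 13573 genes had at least 1 FPKM, and Pearson's r between the libraries of a group was 0.992 to 0.995 over all genes on the log2 scale. The files hold no read counts, so the depth behind each value is unknown. All 6 epithelial markers (*EPCAM*, *CDH1*, *KRT7*, *KRT8*, *KRT18* and *KRT19*) were at 1 FPKM or more in every group. Of the 4 lung lineage markers, *NKX2-1* and *NAPSA* were expressed in HCC4006 (summed level of the list 57.0 to 63.4 FPKM), whereas none reached a mean of 1 FPKM in ABC1 (0.997 to 1.39 FPKM). Of the leukocyte markers only the lysosomal gene *CD68* and of the stromal and endothelial markers only *COL1A1* reached a mean of 1 FPKM, and of the hepatocyte markers only *SERPINA1*, in HCC4006. The summed level of the epithelial markers was 4974 and 5825 FPKM with vehicle and 3666 and 4085 FPKM with DEM in ABC1, and 4393 and 4578 FPKM with vehicle and 3443 and 3487 FPKM with DEM in HCC4006, where *KRT7*, *KRT8*, *KRT18* and *SERPINA1* were called lower with DEM by limma, at an adjusted p under 0.05. Leaving out any single library ended the call of *SERPINA1* (limma adjusted p of 0.0705 to 0.137), and leaving out any of 3 libraries ended those of *KRT8* (0.0662 to 0.0756) and *KRT18* (0.0539 to 0.0676). The part of this shift in the results below was not tested. All 7 NRF2 target genes used as a check of the treatment (*NQO1*, *GCLM*, *GCLC*, *TXNRD1*, *SRXN1*, *SLC7A11* and *HMOX1*) rose with DEM in both lines, with a median log2 fold change of 2.55 in ABC1 and 2.40 in HCC4006. Over all genes, limma called 1.20% of 12635 in ABC1 (0.768% higher) and 19.1% of 13542 in HCC4006 (8.45% higher and 10.7% lower). In ABC1 the call of *NQO1* was lost when any single library was left out (1.31 to 1.86), those of *GCLM* and *TXNRD1* without either vehicle library (log2 fold changes of 1.49 to 1.73 and 1.67 to 1.96 over the 4 fits) and that of *SRXN1* without the vehicle library 0 (2.45). All 7 calls in ABC1 were lost when genes under 1 FPKM were also fitted. The calls of *NQO1*, *KRT7*, *KRT8*, *KRT18* and *SERPINA1* in HCC4006 were lost in that fit too.

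**Figure D1:**
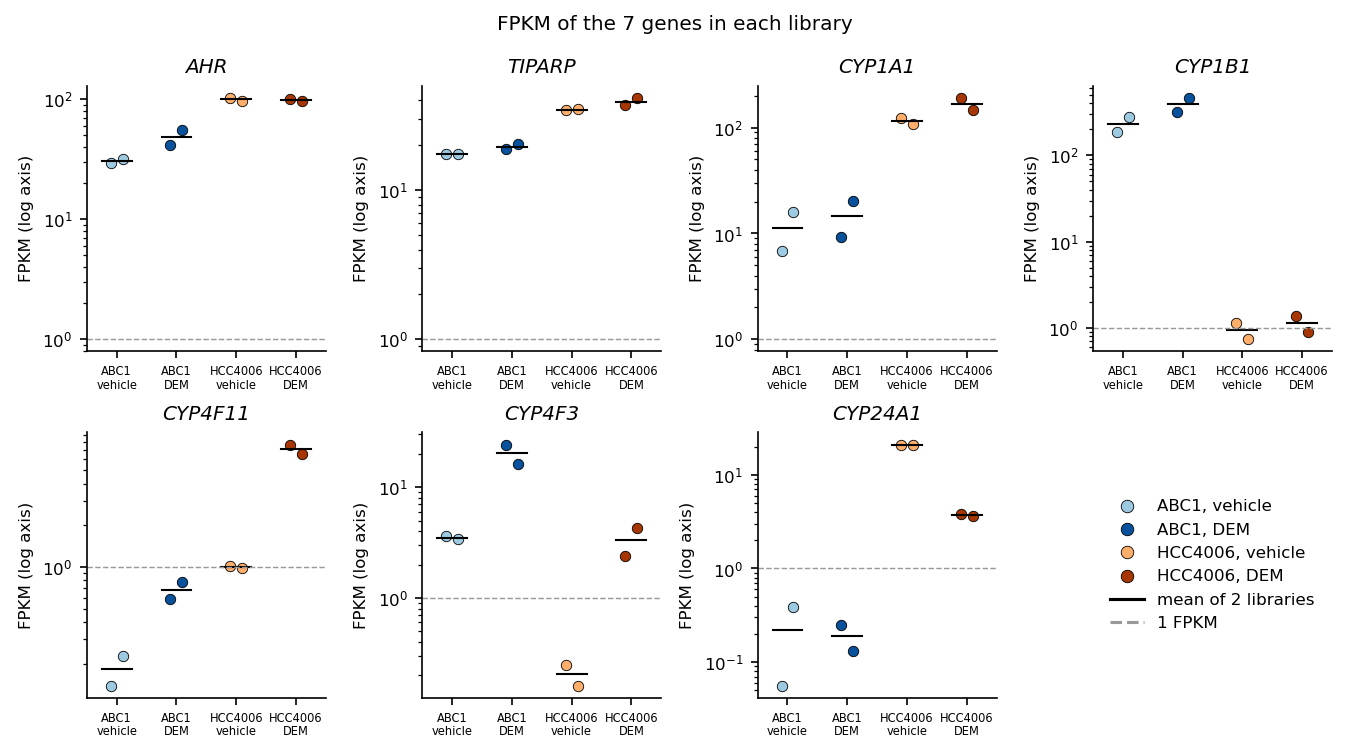
FPKM of the 7 genes (log axis, a scale per gene) in each library, with the mean of the 2 libraries of a group as a bar and 1 FPKM as a dashed line. *CYP1B1* and *CYP4F3* were highest in ABC1 with DEM, *CYP24A1* was highest in HCC4006 with vehicle, and the *CYP4F3* and *CYP4F11* points with DEM lie above those with vehicle in both lines.

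The question of the first comparison was how the lines differed without DEM. FPKM is a level per length of transcript, so the levels of different genes can be set side by side. The receptor itself was at 29.4 and 31.9 FPKM in the vehicle libraries of ABC1 and at 102 and 97.6 FPKM in those of HCC4006. *AHR* was thus 3.26-fold higher in HCC4006, a log2 difference of 1.68 (standard error 0.09, limma adjusted p = 8.28e-05). *TIPARP* was at 17.6 and 17.6 FPKM in ABC1 and at 34.3 and 34.9 FPKM in HCC4006, a log2 difference of 0.94 (standard error 0.09, limma adjusted p = 0.000483). Adjustment was by the method of Benjamini and Hochberg over every gene tested.

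The 2 CYP1 enzymes went in opposite directions between the lines. *CYP1A1*, which oxidises polycyclic aromatic hydrocarbons, was at 6.81 and 15.9 FPKM in ABC1 and at 124 and 109 FPKM in HCC4006. It was 10.2-fold higher in HCC4006, a log2 difference of 3.35 (standard error 0.36, limma adjusted p = 0.000765). *CYP1B1*, which oxidises the same class of compounds and estradiol and acts mainly outside the liver, was at 184 and 281 FPKM in ABC1 but at 1.13 and 0.739 FPKM in HCC4006. Its log2 difference of -6.89 (standard error 0.23) was the 10th lowest among 13747 genes tested, and the means differed 249-fold. Genes with a mean under 1 FPKM over the compared libraries were not tested, and *CYP1B1* passed this minimum through ABC1 only. In the fit without a minimum its limma adjusted p was 0.00515. In ABC1 there was thus 17.7 to 27.1 times as much *CYP1B1* as *CYP1A1* with vehicle, and in HCC4006 there was 109 to 147 times as much *CYP1A1* as *CYP1B1*. The line with the higher *AHR* level had the higher *CYP1A1* and *TIPARP* levels and the lower *CYP1B1* level. Whether the receptor's level had a part in these differences was not tested.

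*CYP4F3* was at 3.596 and 3.391 FPKM in ABC1 and at 0.247 and 0.160 FPKM in HCC4006, a log2 difference of -1.90 (standard error 0.14). With a pseudocount of 0.1 in place of 1 this difference was -3.58, since the value in HCC4006 is far under 1 FPKM. The gene passed the minimum mean of 1 FPKM through ABC1 only, and in the fit without a minimum its limma adjusted p was 0.00701. *CYP4F11* showed the opposite order. It was at 0.138 and 0.228 FPKM in ABC1 and at 1.02 and 0.983 FPKM in HCC4006, and its mean over these libraries was under 1 FPKM, so it was not tested. *CYP24A1* was nearly absent in ABC1, at 0.0558 and 0.390 FPKM, and at 20.9 and 21.1 FPKM in HCC4006, a log2 difference of 4.18 (standard error 0.17). It passed the minimum through HCC4006 only, and in the fit without a minimum its limma adjusted p was 0.00522. A fall with DEM, as described for this gene below, needs a level above the floor with vehicle. This p is therefore not independent of the selection.

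All 6 genes that could be tested were called different between the lines, 4 higher and 2 lower in HCC4006, and for all 7 the libraries of the lines did not overlap. This count does not set them apart, because 67.7% of the 13747 genes tested were called (37.3% higher and 30.4% lower in HCC4006), and for 85.1% of genes the libraries of the lines did not overlap. *CYP1B1*, *CYP4F3* and *CYP24A1* reached the minimum mean of 1 FPKM through 1 line only, so that a gene of this kind had to differ to be tested. In the fit of all genes without a minimum, the limma adjusted p was 0.00515 for *CYP1B1*, 0.00701 for *CYP4F3* and 0.00522 for *CYP24A1*.

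**Figure D2:**
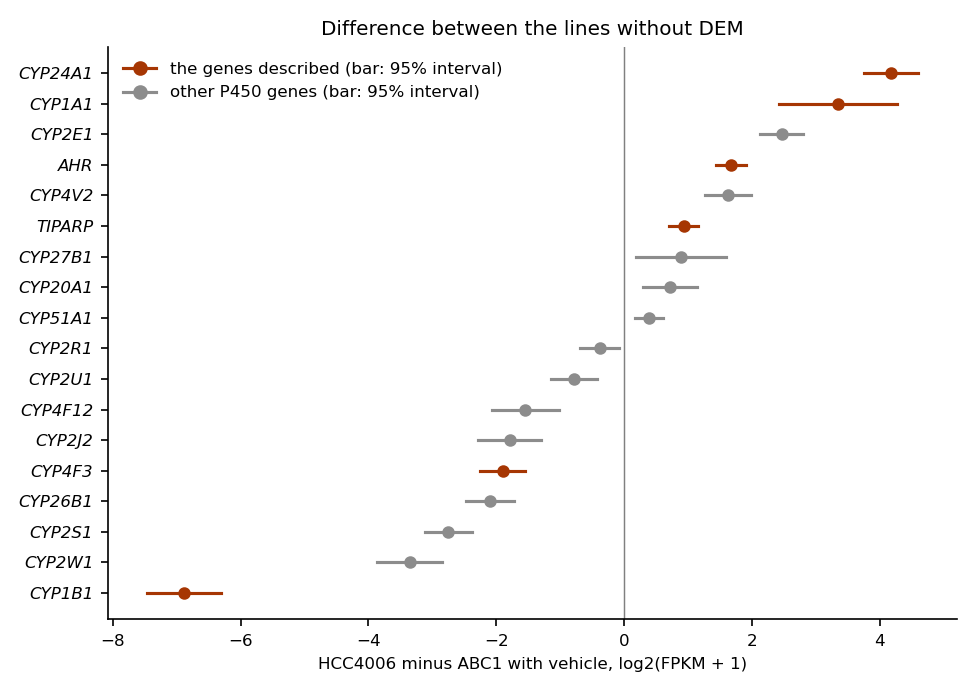
Difference between HCC4006 and ABC1 with vehicle on the log2(FPKM + 1) scale for the 6 tested genes described here (dark) and the other tested P450 genes (grey), with 95% confidence intervals from limma. *CYP1B1*, at -6.89, lies far below the other P450 genes, and *CYP24A1* and *CYP1A1* lie at the upper end.

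Next, the response to DEM was described in each line on its own. In ABC1, *CYP4F3* was at 24.3 and 16.1 FPKM with DEM against 3.596 and 3.391 FPKM with vehicle, a 5.79-fold difference of the means. On the log2(FPKM + 1) scale the difference was 2.21 (standard error 0.21), which placed *CYP4F3* 25th from the top among the 12635 genes tested in ABC1. In HCC4006, *CYP4F3* was at 2.38 and 4.27 FPKM with DEM against 0.247 and 0.160 FPKM with vehicle, 16.4-fold by the means. The log2 difference there was 1.81 (standard error 0.25) with a pseudocount of 1 and 3.46 with a pseudocount of 0.1. Both DEM libraries thus lay above both vehicle libraries in each line, and the libraries of ABC1 with vehicle overlapped in range with those of HCC4006 with DEM.

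*CYP4F11* was at 7.66 and 6.56 FPKM in HCC4006 with DEM against 1.02 and 0.983 FPKM with vehicle, a 7.09-fold difference. Its log2 difference was 2.01 (standard error 0.15), 25th from the top among 13542 genes tested in HCC4006. In ABC1 the values with DEM, 0.587 and 0.781 FPKM, were above the values with vehicle, 0.138 and 0.228 FPKM, but all 4 were under 1 FPKM and the gene was not fitted there. The balance of the 2 genes differed between the lines whether or not DEM was given. In ABC1 there was 14.9 to 26.1 times as much *CYP4F3* as *CYP4F11* with vehicle and 20.7 to 41.4 times as much with DEM. In HCC4006 there was 4.14 to 6.15 times as much *CYP4F11* as *CYP4F3* with vehicle and 1.54 to 3.22 times as much with DEM.

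Of the other 4 *CYP4F* genes, 1 could be tested in ABC1 and 0 in HCC4006, and none was called by limma or had an unadjusted p under 0.05. They are those left after *CYP4F3* and *CYP4F11* were selected on their response, so nothing is read from this count. *CYP4F12*, the direct neighbour of *CYP4F3*, was at 4.04 and 3.09 FPKM with vehicle and at 7.63 and 3.29 FPKM with DEM in ABC1 (log2 difference 0.42, standard error 0.35, limma adjusted p = 0.517). In HCC4006 it was between 0.344 and 1.72 FPKM and was not tested. *CYP4F2*, *CYP4F8* and *CYP4F22* were at most 0.152 FPKM in the 8 libraries.

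*CYP24A1* in HCC4006 was the 1 case among the 7 genes in which both DEM libraries lay below both vehicle libraries. It was at 3.82 and 3.64 FPKM with DEM against 20.9 and 21.1 FPKM with vehicle, 5.63-fold lower. The log2 difference of -2.22 (standard error 0.10) was the 11th lowest of 13542 genes. In ABC1 all 4 libraries lay between 0.0558 and 0.390 FPKM, with the groups overlapping, and no difference could be measured at that level.

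*CYP1A1* was at 190 and 147 FPKM in HCC4006 with DEM against 124 and 109 FPKM with vehicle, 1.45-fold by the means and 0.52 on the log2 scale (standard error 0.14). When single libraries were left out, this difference lay between 0.335 (without the DEM library 0) and 0.707 (without the DEM library 1). In ABC1 it was at 9.27 and 20.2 FPKM with DEM against 6.81 and 15.9 FPKM with vehicle, so the groups overlapped and the log2 difference of 0.36 had a standard error of 0.47. Without the vehicle library 0 this difference was -0.20, without the vehicle library 1 it was 0.92, without the DEM library 0 it was 0.88 and without the DEM library 1 it was -0.16, so its direction depended on a single library. In both groups of ABC1, library 1 had 2.33 (vehicle) and 2.18 (DEM) times the *CYP1A1* level of library 0. Between libraries of the same number, the value with DEM was above that with vehicle. The numbers were not taken to pair the libraries, so no rise is read from this.

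*CYP1B1* was at 319 and 461 FPKM in ABC1 with DEM against 184 and 281 FPKM with vehicle, a log2 difference of 0.75 (standard error 0.27). It lay between 0.447 (without the vehicle library 0) and 1.05 (without the vehicle library 1) when single libraries were left out. In HCC4006, *CYP1B1* was at 1.39 and 0.904 FPKM with DEM, which overlapped the vehicle libraries.

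*AHR* was at 41.8 and 55.4 FPKM in ABC1 with DEM, above the 29.4 and 31.9 FPKM with vehicle (log2 difference 0.64, standard error 0.17). In HCC4006 the groups overlapped. There *AHR* was at 100.2 and 97.2 FPKM with DEM and at 102 and 97.6 FPKM with vehicle (log2 difference -0.02, standard error 0.07). *TIPARP* was at 18.8 and 20.4 FPKM in ABC1 and at 37.1 and 41.5 FPKM in HCC4006 with DEM, in each line above both vehicle libraries. These differences were small, at 0.15 (standard error 0.12) and 0.18 (standard error 0.09) on the log2 scale.

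In ABC1, both DEM libraries lay above both vehicle libraries for 5 of the 7 genes, 4 of which reached the minimum mean of 1 FPKM, against 25.5% of the 12635 genes that did. In HCC4006 they lay above for 4 genes and below for 1, against 29.3% and 35.3% of the 13542 genes tested. The genes were selected on this response, so nothing is read from these counts. Each line's DEM comparison shares its vehicle libraries with the comparison of the lines above. In bulk RNA, fewer cells with a transcript and less of it per cell cannot be told apart.

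**Figure D3:**
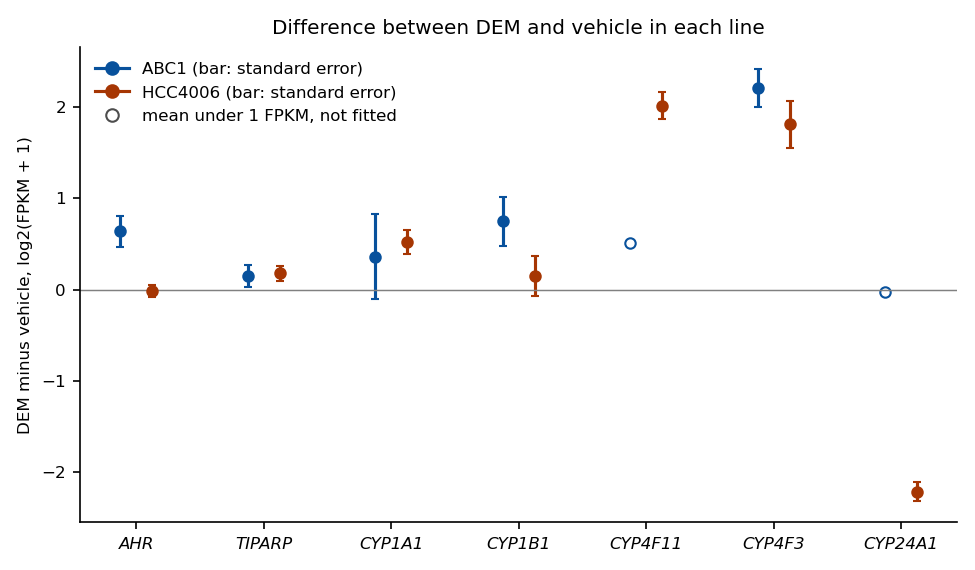
Difference between DEM and vehicle on the log2(FPKM + 1) scale for each gene in ABC1 (blue) and HCC4006 (red), with the standard error from limma as a bar. Open circles mark genes with a mean under 1 FPKM in the line, which were not fitted. *CYP4F3* lies near 2 in both lines, *CYP4F11* near 2 in HCC4006 and *CYP24A1* near -2 in HCC4006.

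Across the 4 groups, *CYP1A1*, *TIPARP* and *CYP4F11* had the same order of levels, HCC4006 with DEM, HCC4006 with vehicle, ABC1 with DEM and ABC1 with vehicle from high to low. Neighbours in this order did not overlap, except the 2 groups of ABC1 for *CYP1A1*. *CYP1B1* and *CYP4F3* shared another order, ABC1 with DEM, ABC1 with vehicle, HCC4006 with DEM and HCC4006 with vehicle. The 2 groups of HCC4006 overlapped for *CYP1B1*, and ABC1 with vehicle and HCC4006 with DEM overlapped for *CYP4F3*. *AHR* was highest in HCC4006, where its groups overlapped, followed by ABC1 with DEM and ABC1 with vehicle. *CYP24A1* went from HCC4006 with vehicle to HCC4006 with DEM and then to ABC1, where the groups overlapped. Single libraries under 1 FPKM numbered 5 for *CYP4F11*, 4 for *CYP24A1*, 2 for *CYP4F3* and 2 for *CYP1B1*.

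The genes were then set among all 57 human P450 genes. Of these, 21 had a mean of at least 1 FPKM in at least 1 group and 36 were under 1 FPKM in every library. The summed FPKM of all P450 genes was 373 and 471 in the vehicle libraries and 496 and 640 in the DEM libraries of ABC1. In HCC4006 the sum was 261 and 244 with vehicle and 324 and 288 with DEM. *CYP1B1* alone made up 49.5% and 59.6% of the P450 transcripts of ABC1 with vehicle and 64.3% and 72.2% with DEM. *CYP1A1* made up 47.4% and 44.5% of those of HCC4006 with vehicle and 58.7% and 50.9% with DEM. Each line thus had 1 dominant CYP1 transcript, and it was not the same one.

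The other abundant P450 genes with vehicle were *CYP2S1* (81.9 FPKM), *CYP51A1*, the sterol 14-demethylase of cholesterol synthesis (50.5 FPKM), and *CYP2W1* (10.6 FPKM) in ABC1. In HCC4006 they were *CYP51A1* (66.7 FPKM), *CYP2S1* (11.5 FPKM) and *CYP2E1*, known for the oxidation of ethanol (8.49 FPKM). With DEM, *CYP4F3* moved from the 10th to the 4th place among the P450 genes of ABC1. In HCC4006, *CYP4F11* moved from the 12th to the 4th place and *CYP24A1* from the 3rd to the 9th, with *CYP4V2* (6.62 FPKM) in the 5th. The other P450 genes were also tested with DEM. They are those left after the P450 genes selected on their response were set apart, so nothing is read from a low count of calls among them. By limma, 0 of the 10 tested in ABC1 and 0 of the 9 tested in HCC4006 were called in either direction, with 2 and 3 of them at an unadjusted p under 0.05, and no other tool was run. Their median log2 difference was -0.23 in ABC1 and -0.11 in HCC4006, beside -0.02 and -0.03 for all genes tested. Between the lines, all 12 tested were called, 5 higher and 7 lower in HCC4006, among them *CYP2W1* (-3.35), *CYP2S1* (-2.75) and *CYP2E1* (2.47). This count does not set them apart, because 67.7% of all genes tested were called between the lines. *CYP2W1*, *CYP2E1*, *CYP26B1*, *CYP2J2*, *CYP4F12* and *CYP27B1* reached the minimum mean of 1 FPKM through 1 line only. A gene of this kind had to differ to be tested.

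**Figure D4:**
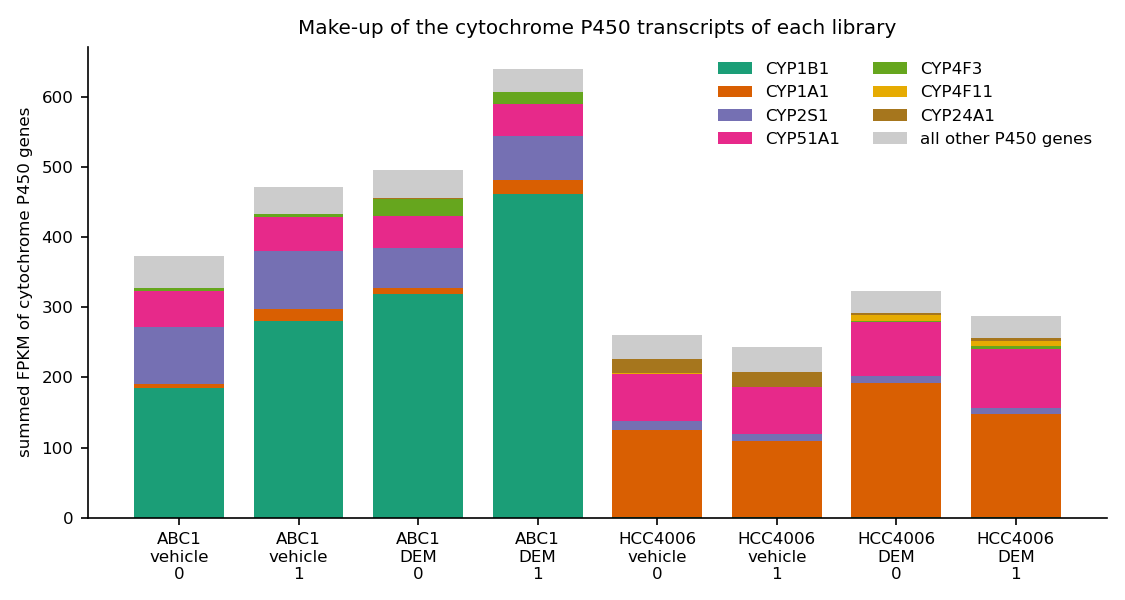
Summed FPKM of the 57 P450 genes in each of the 8 libraries, divided by gene, with all genes not named in grey. *CYP1B1* fills 49.5% to 72.2% of the bars of ABC1 and *CYP1A1* 44.5% to 58.7% of those of HCC4006, and *CYP4F3* and *CYP4F11* become visible with DEM.

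The partners of the receptor were examined in a list of 6 further genes of its complex. In HCC4006, *HSP90AA1*, which encodes the inducible HSP90 that holds the receptor, rose by a log2 fold change of 0.45 (standard error 0.09, limma adjusted p = 0.0258), from 915 and 965 FPKM to 1178 and 1398 FPKM. Leaving out the vehicle library 0 (0.41), the vehicle library 1 (0.49) or the DEM library 1 (0.33) ended the call of *HSP90AA1*. The call was also lost when genes under 1 FPKM were fitted as well, without the trend of variance on the mean, and in a model of all 8 libraries. The other 5 tested in HCC4006 were not called, among them *ARNT*, the receptor's partner on DNA (0.03), *ARNT2* (-0.28), the receptor's repressor *AHRR* (0.23), *HSP90AB1* (0.07) and *PTGES3*, the co-chaperone p23 (0.25). In ABC1, 0 of the 5 tested were called by limma, with 2 at an unadjusted p under 0.05. The log2 differences there were 0.73 for *HSP90AA1*, 0.51 for *PTGES3*, 0.24 for *ARNT*, 0.20 for *AHRR* and 0.09 for *HSP90AB1*.

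Of 12 further genes known as targets of the receptor, 7 were tested in HCC4006, of which 5 rose and 1 fell. Over all genes tested there, 8.45% were called higher and 10.7% lower, and this list was chosen with earlier results known. *NQO1* rose by a log2 fold change of 0.89, *SLC7A5* by 1.02, *ABCG2* by 0.72, *ALDH3A1* by 0.50 and *NFE2L2*, the gene of NRF2, by 0.45, with limma adjusted p-values of 0.00179, 0.00126, 0.0332, 0.00654 and 0.0147. Several of these, such as *NQO1* and *ABCG2*, are also known as NRF2 targets, and the list cannot tell the factors apart. *ALDH3A1* was at 126 and 124 FPKM with vehicle and at 176 and 178 FPKM with DEM, whereas it was at 0 to 0.543 FPKM in ABC1. *PTGS2*, the inducible cyclooxygenase, fell by 1.97 on the log2 scale (standard error 0.10, limma adjusted p = 0.000677), from 24.8 and 28.0 FPKM to 6.03 and 5.91 FPKM. The call of *ABCG2* was lost without the vehicle library 0 (0.54), the DEM library 0 (0.70) or the DEM library 1 (0.75), that of *ALDH3A1* without the vehicle library 1 (0.48), and that of *NFE2L2* without the vehicle library 1 (0.39), the DEM library 0 (0.42) or the DEM library 1 (0.48). Fitting genes under 1 FPKM as well ended the calls of *NQO1*, *ABCG2* and *NFE2L2*. A model of all 8 libraries ended those of *ALDH3A1* and *NFE2L2*.

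In ABC1, 1 of the 6 tested, *NQO1*, rose by 1.59 (standard error 0.21, limma adjusted p = 0.0422), and leaving out any single library ended this call at log2 fold changes of 1.31 to 1.86. Over all genes tested there, 0.768% were called higher. Of the 6 genes, 3 had an unadjusted p under 0.05. *NFE2L2* (0.68, limma adjusted p = 0.107) and *SLC7A5* (0.55, limma adjusted p = 0.143) were not called in ABC1. For both, the DEM libraries lay above the vehicle libraries there. *AHRR*, another classical target, was at 1.96 and 1.05 FPKM with vehicle and at 2.09 and 1.60 FPKM with DEM in ABC1, and at 4.23 and 2.91 FPKM with vehicle and at 5.14 and 3.59 FPKM with DEM in HCC4006. Its groups overlapped in both lines (limma adjusted p = 0.689 and 0.469).

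The difference between the lines in the response was tested for these listed genes but not for the 7 genes themselves. Over all genes 0.636% of 13682 were called by that test. Among the listed genes tested other than the 7, *PTGS2* alone was called, with a difference of -1.99 between the log2 fold change in HCC4006 and that in ABC1, where it was at 11.6 and 17.6 FPKM with vehicle and at 12.5 and 16.9 FPKM with DEM.

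**Figure D5:**
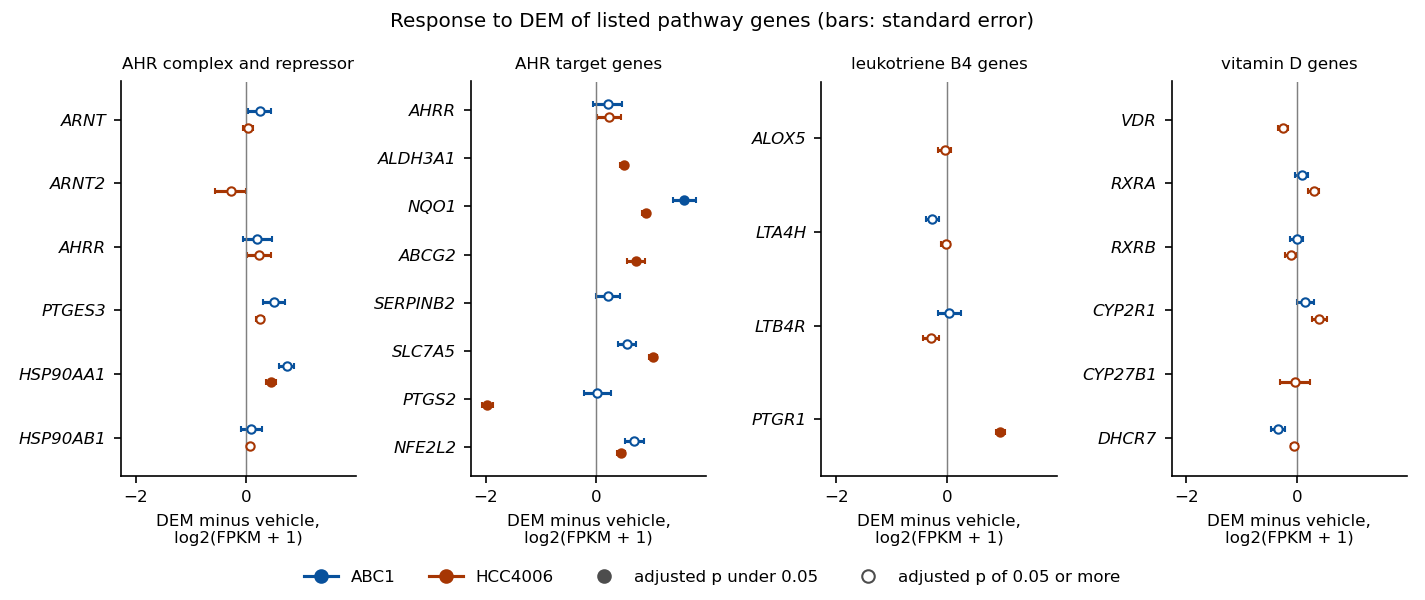
Difference between DEM and vehicle on the log2(FPKM + 1) scale, with its standard error, of the tested genes of 4 lists that are not among the 7 genes, in ABC1 (blue) and HCC4006 (red). Filled points have an adjusted p under 0.05. *PTGS2* in HCC4006, at -1.97, is the lowest point, and the leukotriene and vitamin D genes have 1 filled point, *PTGR1* in HCC4006.

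The other genes of the leukotriene B4 pathway, on which CYP4F3 acts, were followed in a list of 7. *LTA4H*, the hydrolase that makes leukotriene B4, was at 48.1 and 48.4 FPKM in ABC1 with vehicle and at 38.4 and 41.9 FPKM with DEM (limma adjusted p = 0.278), and differed by -0.02 on the log2 scale in HCC4006. The receptor gene *LTB4R* was at 2.10 to 3.53 FPKM in the 8 libraries and was not called. *ALOX5*, the lipoxygenase that starts the pathway, was at 8.02 and 7.23 FPKM in HCC4006 with vehicle and at most 0.218 FPKM in ABC1. *PTGR1*, whose enzyme oxidises leukotriene B4 by another route and which is also a known NRF2 target, rose in HCC4006 from 44.8 and 49.4 FPKM to 94.7 and 91.7 FPKM (log2 fold change 0.97, standard error 0.08, limma adjusted p = 0.00206). Its call by limma was lost when genes under 1 FPKM were also fitted. In ABC1 *PTGR1* was at most 0.448 FPKM. By limma, 0 of the 2 genes tested in ABC1 (0 at an unadjusted p under 0.05) and 1 of the 4 tested in HCC4006 were called.

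The vitamin D genes were listed for *CYP24A1*. *VDR*, the vitamin D receptor, was at 25.9 and 22.9 FPKM in HCC4006 with vehicle and at 19.7 and 20.9 FPKM with DEM, a log2 difference of -0.25 (standard error 0.10, limma adjusted p = 0.12). It was at 1.03 and 1.149 FPKM in ABC1 with vehicle and at 0.0281 and 0.354 FPKM with DEM, where it was not tested, so the line with *CYP24A1* was also the line with *VDR* (limma adjusted p = 1.97e-05). *CYP27B1*, which makes the hormone, was at 1.56 and 3.32 FPKM with vehicle and at 2.55 and 1.96 FPKM with DEM in HCC4006. The log2 differences of *CYP2R1*, the 25-hydroxylase, *RXRA*, the partner of VDR, *RXRB* and *DHCR7* in HCC4006 were 0.40, 0.30, -0.11 and -0.05, with limma adjusted p-values of 0.0932, 0.0883, 0.513 and 0.596. By limma, 0 of the 6 genes tested in HCC4006 and 0 of the 4 tested in ABC1 were called, with 3 and 1 at an unadjusted p under 0.05.

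P450 enzymes depend on electron donors such as *POR*, the P450 reductase. Of 11 genes of donors and partners, 0 of the 10 tested in ABC1 and 0 of the 11 tested in HCC4006 were called by limma, with 3 and 4 at an unadjusted p under 0.05. *POR* differed by 0.26 in ABC1 and 0.29 in HCC4006 on the log2 scale. Among nuclear receptors that govern other P450 genes, *PPARA* rose in HCC4006 from 4.10 and 4.20 FPKM to 6.99 and 6.51 FPKM (log2 fold change 0.59, standard error 0.12, limma adjusted p = 0.0247). Leaving out any single library ended this call, at log2 fold changes of 0.544 to 0.632, and 0 of the 3 tested in ABC1 were called, with 1 at an unadjusted p under 0.05. The pregnane X receptor gene *NR1I2* was at most 0.0773 FPKM. A list of 5 further genes held the antisense genes *CYP1B1-AS1* and *TIPARP-AS1* and the pseudogenes *CYP4F24P*, *CYP4F26P* and *CYP4F35P*. By limma, 0 were called with DEM in either line and 0 were at an unadjusted p under 0.05. In ABC1, 3 were tested. In HCC4006 the 1 gene tested was *CYP4F26P*, so the antisense genes were not tested there. *TIPARP-AS1* was lower in HCC4006 than in ABC1 with vehicle (4.01 FPKM in ABC1 against 0.88 FPKM by the means, log2 difference -1.42), whereas *TIPARP* was higher. *TIPARP-AS1* reached the minimum mean of 1 FPKM through ABC1 only, so no p is given for it.

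For each gene the 3 genes with the most similar pattern over the 8 libraries were found among 13681 genes by the root mean square difference of centred log2(FPKM + 1). The closest to *CYP4F3* were *GPX2* (0.31), *B4GALNT1* (0.37) and *GABARAPL1* (0.51). *GPX2*, a glutathione peroxidase, went from a mean of 3.43 to 17.7 FPKM with DEM in ABC1 and from 0.387 to 2.92 FPKM in HCC4006. The closest to *CYP4F11* were ENSG00000257732, a noncoding gene with no symbol (0.10), *CBR3* (0.22) and *BHLHA15* (0.23). *CBR3*, a carbonyl reductase, went from a mean of 3.29 to 7.18 FPKM in ABC1 and from 6.76 to 36.0 FPKM in HCC4006.

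The closest to *CYP24A1* were *ADORA1* (0.31), *CX3CL1* (0.31) and *SPTSSB* (0.33), and *CX3CL1* had means of 10.4 FPKM with vehicle and 2.03 FPKM with DEM in HCC4006 and 0 in ABC1. *PRSS35* (0.29), *S100P* (0.31) and *SCARA3* (0.37) were closest to *CYP1B1*, and *PRSS35* had means of 117 FPKM with vehicle and 225 FPKM with DEM in ABC1 and of 0.0288 and 0.0137 FPKM in HCC4006. *ANXA3* (0.29), *MDFI* (0.30) and *CYBA* (0.31) were closest to *CYP1A1*. *L3MBTL3* (0.09), *FAM43A* (0.11) and *PSMC1P1* (0.12) were closest to *AHR*, and *NKAP* (0.06), *DYNC1I2* (0.06) and *TOM1L1* (0.07) to *TIPARP*. The likeness is a description over 8 libraries of 2 lines, and a difference between the lines makes up much of it.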

How the data were processed

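Expression was measured by polyA-selected, strand-specific RNA-seq with 80-base reads. The authors deposited FPKM values per gene and library. The study's methods give TopHat, hg19 and Cufflinks, whereas the submitters' processing notes name STAR 2.5.3a, Cuffnorm, HTSeq and DESeq2 without their order, so which tools made the deposited values is not certain. The 2 tables in which the authors compared DEM with vehicle (base means, log2 fold changes and p-values) were not used.

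Groups were taken from the labels. The libraries of a group are biological duplicates in the study's methods. FPKM values were tested with limma 3.58.1 (R 4.3.3), with its trend of variance on the mean, after adding 1 and taking log2. Genes whose mean over the compared libraries was under 1 FPKM were left out. A gene was called at a Benjamini-Hochberg adjusted p under 0.05, and a log2 difference understates the change of a gene near or under 1 FPKM. The smallest two-sided p of an exact permutation test would be 0.333 with 2 libraries in each group. Symbols were found for 55534 of 57815 identifiers. The alternatives were a pseudocount of 0.1, no minimum, scaling by the median of ratios, no trend, the replicate number as a block, a model of all 8 libraries, and leaving out each library.

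The 7 genes and all gene lists were chosen with earlier results of these data known. Named in the text are the 7 genes in every library, the genes of each list called with DEM (at most 5 per list and line), the AHR complex, *CYP4F*, leukotriene and vitamin D genes that reach a mean of 1 FPKM in a line, the 5 highest P450 genes per group and the 3 genes most like each of the 7. Others, such as *CYP4F2*, *POR*, *NR1I2*, *TIPARP-AS1* and members of marker lists, were named after their values were seen. The marker *PECAM1* was not matched to an identifier. 1 listed gene is not reported here.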

Additional observations from a re-analysis of the deposited data

Results flagged for a closer look

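The response of *PTGS2* to DEM differed between the lines by a test of the difference itself. The log2 fold change in HCC4006 minus that in ABC1 was -1.99 (standard error 0.29, limma adjusted p = 0.0388 over all genes tested). Both DEM libraries of HCC4006 were below both vehicle libraries, while the groups of ABC1 overlapped. The call was lost in 7 of the 8 fits that left out a library, with adjusted p-values of 0.0503 to 0.205, and held without the ABC1 vehicle library 1 (-2.28, limma adjusted p = 0.0462). It was also lost with a pseudocount of 0.1 (limma adjusted p = 0.0711) and without the minimum of 1 FPKM (limma adjusted p = 0.0953). The cause of the difference was not tested. Groups of 2 libraries are too small to look for single libraries that stand apart.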

How the results depend on the processing

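The differences of the 6 tested genes between the lines with vehicle kept their direction and their call in each of the 10 alternatives run for each gene. *CYP1B1*, *CYP4F3* and *CYP24A1* passed the minimum of 1 FPKM through 1 line, and only the fit without a minimum lifts that filter. The number of genes called changed. In ABC1 (97 higher and 55 lower) it was 158 and 93 with scaling by the median of ratios, 27 and 6 without the trend, 779 and 788 in the model of all 8 libraries, and 0 and 0 without a minimum, where 3883 genes had an unadjusted p under 0.05. In HCC4006 (1144 and 1447) it was 177 and 193 without a minimum and 1291 and 1231 with the median of ratios, where higher calls outnumber lower ones. The difference between the lines (42 and 45) gave 11 and 9 with a pseudocount of 0.1 and 173 and 230 without a minimum. Leaving out single libraries gave 10 to 51 higher and 8 to 18 lower in ABC1, 290 to 464 and 344 to 564 in HCC4006, 0 to 17 and 2 to 27 for the difference between the lines, and 3055 to 5356 and 2517 to 4028 between the lines with vehicle (5121 and 4184). A lone library is then assumed to vary like the others. With the replicate number as a block, 1185 genes were called higher and 1163 lower in ABC1, and 5 and 8 for the difference between the lines. The deviations of same-numbered libraries correlated at 0.26 in ABC1 and 0.05 in HCC4006. The numbers were not taken to pair the libraries, and these correlations do not settle whether they do in ABC1. The causes of these changes were not tested. Without read counts, no interval from counting error could be given for the values under 1 FPKM.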
